A study of Mus musculus with 20 samples.

Results

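The 10 genes described here encode UDP-glucuronosyltransferases or their close relatives in the mouse kidney. They were taken by name from a table of 24411 genes measured in 20 mice, and comprised Ugt2b5, Ugt2b34, Ugt2b35, Ugt2b36, Ugt2b37, Ugt2b38, Ugt1a2, Ugt3a1, Ugt3a2 and Ugt8a. Ugt2b37 and Ugt1a2 had been picked for the way their levels differed between the groups of these same mice, so their values are given as a description with no test. The study asked how loss of Pkd2, a gene mutated in autosomal dominant polycystic kidney disease, changes gene expression in male and female kidneys. Kidneys were collected at P125 from 5 male mutants, 5 female mutants, 5 male controls and 5 female controls of an inbred C57BL/6 background. Mutants were Pkd2fl/fl and carried Pax8rtTA and TetOCre, a pair of transgenes in which the Pax8 promoter drives a doxycycline-dependent activator in the tubule epithelium. Controls lacked either Pax8rtTA or TetOCre. All mice, controls included, received doxycycline at 50 mg/kg from P27 to P29, and RNA came from kidney tissue of each mouse, so that recombined and other cells were measured together.

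UDP-glucuronosyltransferases sit in the membrane of the endoplasmic reticulum and transfer a sugar from a UDP-sugar onto a small molecule, which makes it more soluble and easier to excrete. Members of the Ugt1 and Ugt2 families use UDP-glucuronic acid and act on bilirubin, steroids, bile acids and drugs. Ugt3 enzymes use other UDP-sugars, and Ugt8a makes galactosylceramide, the lipid from which sulfatide is built in myelin and in kidney epithelium. In the kidney, most drug and steroid conjugation takes place in the proximal tubule.

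The genes lay at 4 places in the genome (GRCm38, GENCODE annotation). Ugt2b34, Ugt2b35, Ugt2b36, Ugt2b5, Ugt2b37 and Ugt2b38 were 6 of the 10 genes of the Ugt2 cluster at chr5:86889767-87490871, which spans 601 kb. Ugt2b37 was annotated at chr5:87240493-87254804 and Ugt2b38 at chr5:87409942-87424203, both on the minus strand. Ugt1a2 lay at chr1:88200601-88218997 on the plus strand, and Ugt8a at chr3:125865271-125938619 on the minus strand. Ugt3a1, at chr15:9276888-9315032, and Ugt3a2, at chr15:9335550-9370955, were neighbours on the plus strand.

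Reads of several members could not be cleanly separated by sequence. The coding sequences of Ugt2b5 and Ugt2b38 were 97.0% identical, those of Ugt2b5 and Ugt2b37 were 94.7% identical, and those of Ugt2b37 and Ugt2b38 were 94.1% identical. Of all windows of 100 bases in the transcript of Ugt2b5, 24.7% occurred unchanged in another gene, against 24.2% for Ugt2b38 and 1.06% for Ugt2b37. Ugt1a2 shares its downstream exons with the other Ugt1a genes, and 62.9% of its windows of that length were found in them. Ugt3a1 and Ugt3a2, at 93.2% coding identity, shared 0% of such windows, as did Ugt8a. How the study's counting treated reads that fit several genes is not given in the sources used here, so counts of Ugt2b5 and Ugt1a2 in particular are uncertain.

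RefSeq promoter windows were matched for 9 of the 10 genes. The windows of Ugt2b37, Ugt2b38 and Ugt2b5 are shown because these genes were all higher in control males than in control females, by very different amounts, while the sequences before their starts were close copies. Capitals mark the longest run identical in all 3 genes, 62 bases. Counted back from the RefSeq start, with the base next to it as 1, the last capital base was number 24 in Ugt2b37, 10 in Ugt2b38 and 7 in Ugt2b5. The sequence printed for Ugt2b37 has 234 bases, because the 16 bases next to its RefSeq start lie inside the GENCODE gene and were left out, and the others have 250. The window of Ugt2b34, which was higher in females, is shown for contrast, with capitals on TGTTCT, the reverse complement of AGAACA. All 4 are read 5′ to 3′ along the minus strand of GRCm38.p6, at chr5:87254805-87255038, chr5:87424204-87424453, chr5:87140341-87140590 and chr5:86906938-86907187 in this order.
Ugt2b37: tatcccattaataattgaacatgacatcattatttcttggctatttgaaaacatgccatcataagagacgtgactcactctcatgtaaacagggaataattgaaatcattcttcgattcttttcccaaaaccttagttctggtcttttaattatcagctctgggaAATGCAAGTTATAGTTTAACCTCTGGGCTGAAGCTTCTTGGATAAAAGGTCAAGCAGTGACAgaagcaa
Ugt2b38: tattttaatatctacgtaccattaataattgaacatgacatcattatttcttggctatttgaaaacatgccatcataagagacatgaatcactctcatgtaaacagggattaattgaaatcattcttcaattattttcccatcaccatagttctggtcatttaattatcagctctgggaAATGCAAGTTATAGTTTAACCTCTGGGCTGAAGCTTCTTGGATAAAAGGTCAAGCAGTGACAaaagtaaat
Ugt2b5: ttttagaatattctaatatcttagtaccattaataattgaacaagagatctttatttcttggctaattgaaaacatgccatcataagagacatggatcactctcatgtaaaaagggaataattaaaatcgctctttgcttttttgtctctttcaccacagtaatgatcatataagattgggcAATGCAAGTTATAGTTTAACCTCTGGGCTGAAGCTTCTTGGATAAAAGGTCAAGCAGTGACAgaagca
Ugt2b34: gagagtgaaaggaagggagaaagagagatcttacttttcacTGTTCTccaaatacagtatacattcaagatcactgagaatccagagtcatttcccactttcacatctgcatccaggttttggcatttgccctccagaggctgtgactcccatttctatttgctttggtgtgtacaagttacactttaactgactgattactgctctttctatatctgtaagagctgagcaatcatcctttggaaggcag

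Over the 250 bases before the start, Ugt2b37 and Ugt2b38 were 84.8% identical, Ugt2b5 and Ugt2b38 81.5%, and Ugt2b5 and Ugt2b37 72.6%. Each promoter window of 300 bases, which included 50 bases after the start, was searched on both strands for 3 motifs. AGAACA, part of the androgen response element, was present in 3 of the 9 members with a window (Ugt2b34, Ugt2b36 and Ugt1a2) and in 18.97% of all 32851 promoters. TTCNNNGAA, a STAT motif, and TGACNNNGC, the core of the antioxidant response element, were in 0 of the 9, against 8.30% and 12.4% of all promoters. None of the 3 motifs was found in the windows of Ugt2b37, Ugt2b38 or Ugt2b5. In Ugt2b36 and Ugt1a2 the match lay after the start of transcription.

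Libraries held 11307741 to 19324073 counts (median 15813304.5). Levels are given as CPM, the counts scaled to a common library size with TMM factors, which correct for differences in library composition. Pkd2 was 291 CPM on average in male controls and 119 in male mutants, and 257 in female controls and 145 in female mutants. Xist was at least 462 CPM in every female and at most 0.439 CPM in every male, and Ddx3y was 0 in every female and at least 74.7 CPM in every male, as the sex labels have it. The library of female mutant 4 stood apart, with 14850 genes detected against 16776 to 17724 in the other 19 libraries. It had the lowest total, and 76 genes with exactly 1 count against 708 to 859 in the other 19. The calls that female mutant 4 changed are given with and without it. This mouse also had the smallest kidney of the mutants, at 0.836% of body weight. The 8 hepatocyte markers, of which Ttr had the highest level in 19 mice, summed to at most 179 CPM in any mouse and Schwann cell markers to at most 12.6 CPM, whereas proximal tubule markers summed to between 11880 and 63876 CPM.

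**Figure D1:**
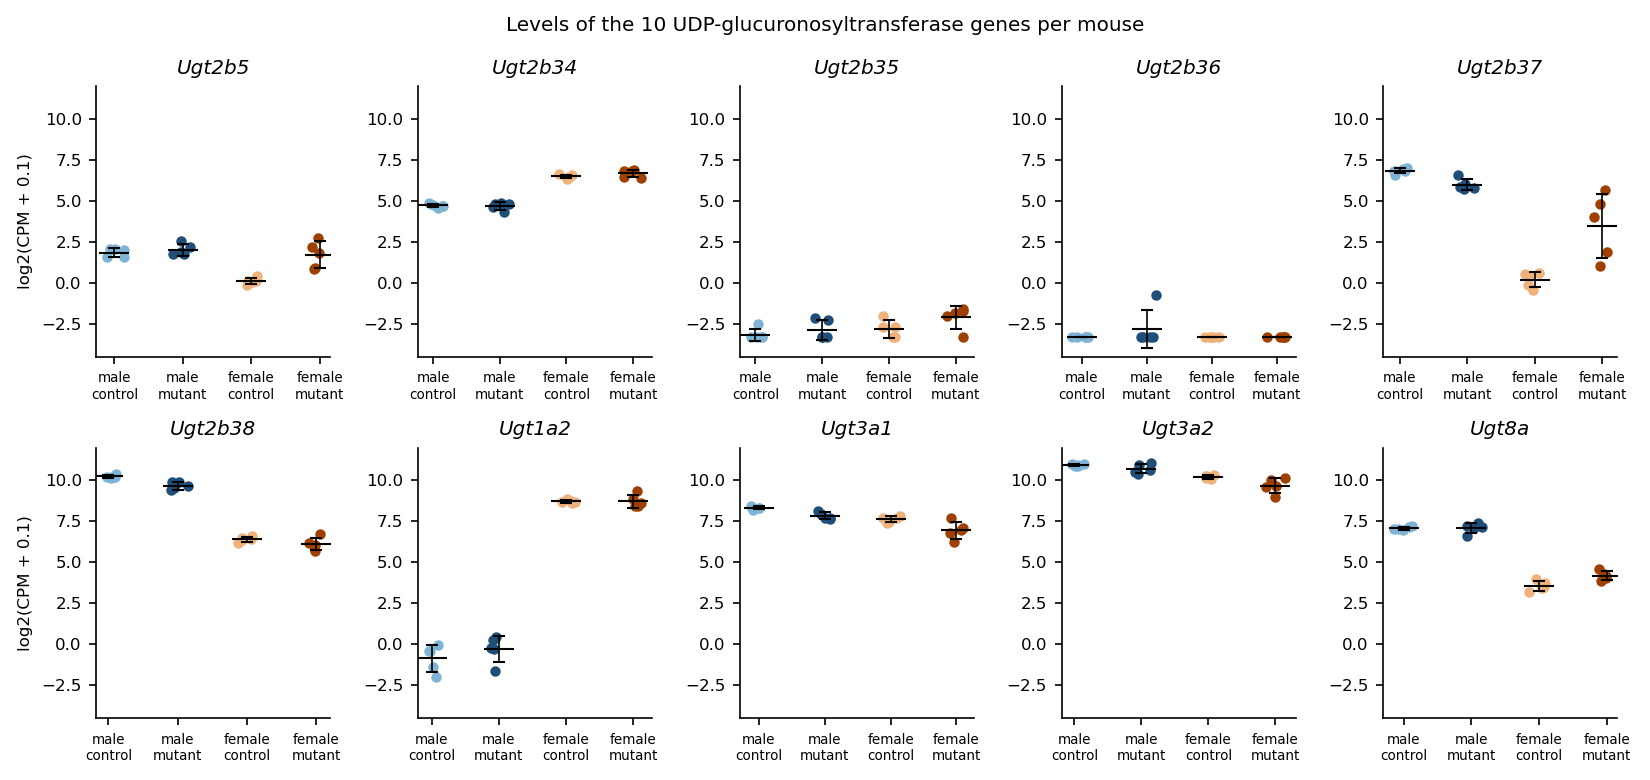
Level of each of the 10 genes in each mouse, as log2(CPM + 0.1), by sex and genotype. Points are mice, and bars are the mean ± SD of 5 mice; Ugt1a2 and Ugt2b34 sat higher in females, Ugt2b38 and Ugt8a higher in males, and Ugt2b37 spread from 1.98 to 50.4 CPM in female mutants.

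Ugt2b35 and Ugt2b36 were at or near 0 in these kidneys. Ugt2b35 had at most 4 counts in any mouse. Ugt2b36 had 9 counts in male mutant 5 and 0 in the other 19 mice, and that library also held the most counts of its neighbour Ugt2b1, a gene best known from liver. The hepatocyte markers were split in male mutant 5. Ttr, Fgb and Apoc3 had 91.3, 4.85 and 7.68 CPM, within the range of the other male mutants. That range was 65.8 to 111, 4.17 to 17.9 and 5.09 to 8.31 CPM. The remaining hepatocyte markers were higher in male mutant 5 than in any other mouse. Alb had 54.1 CPM there against 4.64 to 7.45 CPM in the other male mutants and at most 29.8 CPM in the other 19 mice. Serpina1e had 132 counts (at most 2 in the other male mutants), Ahsg 74 (0) and Cyp2c29 31 (at most 1). The part of these transcripts in the Ugt2b36 counts was not tested. Neither passed the filter on low counts, so 6 of the 8 members that were not picked for their pattern could be tested.

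Levels of the remaining members differed widely when divided by exon length. In male controls Ugt2b38, at 637 ± 40.0 CPM per kilobase (SD, n = 5), and Ugt3a2, at 631 ± 33.0, did not differ beyond their spread. Ugt3a1 followed with 120 ± 7.28, Ugt2b37 with 60.6 ± 6.75, Ugt8a with 29.7 ± 1.75 and Ugt2b34 with 6.13 ± 0.439. Ugt2b5 had 1.91 ± 0.327 and Ugt1a2 0.238 ± 0.135 CPM per kilobase. In female controls the order was Ugt3a2 at 381 ± 25.0, Ugt1a2 at 190.2 ± 11.50, Ugt3a1 at 74.2 ± 8.94, Ugt2b38 at 45.1 ± 4.60 and Ugt2b34 at 20.8 ± 1.59. Ugt8a had 2.66 ± 0.564 in female controls, while Ugt2b37, at 0.581 ± 0.185, and Ugt2b5, at 0.539 ± 0.0831, were not separated by their spread.

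The members that made up the summed level differed between male and female kidneys, as described here with no test. Ugt2b38 was 42.8% ± 1.95 (SD, n = 5) of the sum over the 10 genes in male controls and 6.31% ± 0.639 in female controls. Ugt1a2 was 0.0161% ± 0.00933 of the sum in male controls and 26.6% ± 1.75 in female controls. Ugt3a2 was the main member of female controls, at 53.3% ± 1.52, and 42.4% ± 1.54 of the sum in male controls, where it did not differ from Ugt2b38 beyond the spread. When only the exon bases of each gene that lie in no other gene were used as its length, a choice made after the data were seen, the share of Ugt1a2 in female controls was 47.1% and that of Ugt3a2 was 38.4%, so that their order turned. The summed level was 1488 ± 52.5 CPM per kilobase in male controls, 1141 ± 175 in male mutants, 715 ± 33.2 in female controls and 600 ± 150 in female mutants.

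**Figure D2:**
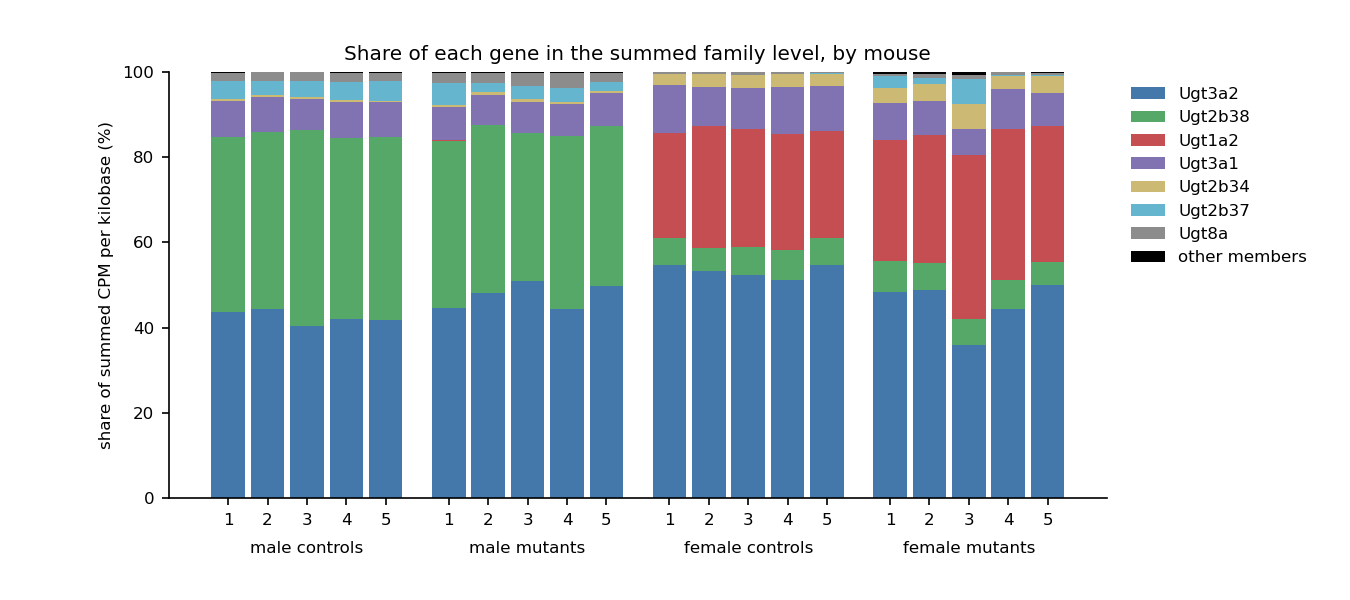
Share (%) of each gene in the summed CPM per kilobase of exon of the 10 genes, 1 bar per mouse, grouped by sex and genotype. Ugt2b38 took 42.8% on average in male controls and 6.31% in female controls, and Ugt1a2 26.6% in female controls.

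The comparison of control males with control females asked which members differ by sex in kidneys with intact Pkd2. All 6 members tested passed an adjusted p of 0.01 (quasi-likelihood test of edgeR, adjusted for litter, with Benjamini-Hochberg correction over all genes), against 17.8% of the 14123 genes tested. Ugt2b38, Ugt8a, Ugt2b5, Ugt3a2 and Ugt3a1 were higher in males and Ugt2b34 was higher in females. The median log2 difference of the 6 was 1.33, beside -0.01 over all genes. The members were chosen with earlier results of these data known. Counts of members called, here and below, therefore describe these genes and do not test the family.

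Ugt2b38, a glucuronosyltransferase of the Ugt2 cluster, had 1198, 1172, 1332, 1131 and 1195 CPM in male controls 1 to 5 and 90.8, 73.0, 81.1, 95.4 and 86.1 CPM in female controls 1 to 5. The groups were far apart, and the log2 difference was 3.82 (SE 0.09, adjusted p = 3.5e-11). Ugt8a, the galactosylceramide synthase, had 141, 128, 132, 146 and 129 CPM in male controls and 13.5, 10.9, 15.6, 11.3 and 8.96 CPM in female controls. Every male was above every female, with a log2 difference of 3.56 (SE 0.12, adjusted p = 1.28e-09). Ugt2b5 was low throughout, with 2.86 to 4.05 CPM in male controls and 0.836 to 1.25 CPM in female controls, and its log2 difference was 1.95 (SE 0.23, adjusted p = 5.34e-05).

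The Ugt3 genes differed less by sex. Ugt3a2 had 1842 to 2083 CPM in male controls and 1075 to 1275 CPM in female controls, a log2 difference of 0.71 (SE 0.07, adjusted p = 1.76e-05). Ugt3a1 had 297 to 352 CPM in male controls and 168 to 227 CPM in female controls, with a log2 difference of 0.68 (SE 0.09, adjusted p = 0.000127). Neither pair of groups overlapped. Ugt2b34 went the other way, with 24.1, 29.2, 27.2, 26.1 and 25.7 CPM in male controls and 81.1, 98.0, 88.4, 95.2 and 86.1 CPM in female controls. Its log2 difference was -1.68 (SE 0.08, adjusted p = 2.55e-08), and the groups did not overlap.

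The 2 picked genes were at the ends of this range, and they had been picked for such group patterns. Ugt1a2 had 2 to 14 counts in each male control and 5240 to 8448 counts in each female control, which gave means of 0.525 and 421 CPM, 801-fold higher in females. Ugt2b37 had 125.4, 97.4, 111, 111 and 129 CPM in male controls and 1.45, 0.818, 0.649, 1.37 and 1.22 CPM in female controls, 104-fold higher in males. Of the tested members in the Ugt2 cluster, Ugt2b34 was higher in control females, and Ugt2b5 and Ugt2b38 were higher in control males. Ugt2b37 was described without a test, and Ugt2b35 and Ugt2b36 did not pass the filter.

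**Figure D3:**
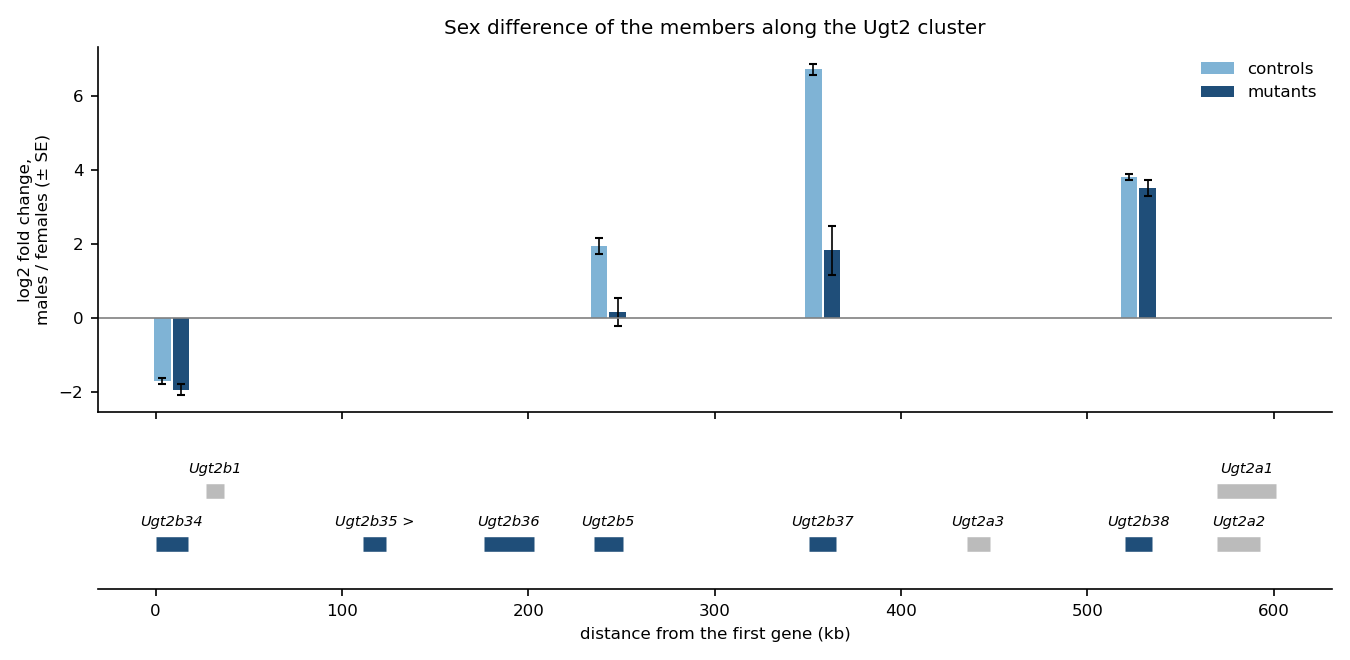
The Ugt2 cluster drawn to scale, with distance in kb from its first gene on the horizontal axis, members in blue and other genes in grey (a > marks the gene on the plus strand). Bars above give the log2 difference of males against females ± SE in controls and in mutants. Ugt2b34 was below 0 in both, and Ugt2b37 and Ugt2b5 had smaller bars in mutants than in controls. The bar of Ugt2b38 was 3.82 in controls and 3.52 in mutants.

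Cell markers also differed by sex. In controls, 6 of 12 proximal tubule markers were higher in males and 0 lower, their sum being 52035 to 63876 CPM in male controls and 23909 to 31501 CPM in female controls. Most of that gap was Kap, an androgen-regulated gene of the proximal tubule, with a mean of 31919 CPM in male controls and 11590 CPM in female controls. Lrp2, Cubn, Slc22a8, Slc5a2 and Slc5a12 had lower means in males (2437, 489, 488, 333 and 478 CPM) than in females (3078, 574, 594, 358 and 511 CPM). All 6 thick ascending limb markers were lower in males. Fewer cells of a type and less RNA per cell cannot be told apart in bulk kidney RNA, and the part of these markers in the sex differences was not tested.

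In mutants the sex difference was called for 3 of the 6 tested members, with Ugt2b38 and Ugt8a higher in males and Ugt2b34 higher in females, against 5.42% of 14416 genes. Ugt2b38 had 726, 971, 668, 810 and 959 CPM in male mutants 1 to 5 and 72.4, 62.8, 51.8, 107 and 66.2 CPM in female mutants 1 to 5, a log2 difference of 3.52 (SE 0.23, adjusted p = 6.14e-06). Ugt8a had 97.7 to 168 CPM in male mutants and 14.6 to 23.6 CPM in female mutants (log2 difference 3.01, SE 0.14, adjusted p = 1.2e-06). Ugt2b34 had 19.5 to 29.5 CPM in male mutants and 82.9 to 116 CPM in female mutants (log2 difference -1.93, SE 0.15, adjusted p = 1.9e-05). In all 3 genes the groups did not overlap.

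Ugt3a2, with 1348 to 2085 CPM in male mutants and 507 to 1148 CPM in female mutants, did not overlap either but missed the threshold (log2 difference 0.98, SE 0.21, adjusted p = 0.0136). Ugt3a1 had a log2 difference of 0.81 (SE 0.24, adjusted p = 0.0487). Without female mutant 4, both passed, at 1.15 (adjusted p = 0.00144) and 1.07 (adjusted p = 0.000472), and 5 members were called, against 9.12% of 14576 genes. Ugt2b5 had 5.71, 4.44, 3.54, 3.24 and 3.27 CPM in male mutants and 3.43, 4.56, 6.58, 1.73 and 1.76 CPM in female mutants. These groups overlapped, with a log2 difference of 0.17 (SE 0.38, adjusted p = 0.794). Ugt1a2 had 0.812 CPM in male mutants against 437 CPM in female mutants, 538-fold higher in females.

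The comparison of mutants with controls within each sex asked how the members respond to loss of Pkd2. In males, 2 of 6 tested members fell, Ugt2b38 and Ugt3a1, and 0 rose, against 8.46% of 14010 genes called. In females, 0 of 6 were called by edgeR, against 0.637% of 14439 genes, although 4 of the 6 had an unadjusted p under 0.05, as did 20.6% of all genes, and DESeq2 called 2 (Ugt2b5 and Ugt8a) beside 928 genes in all. Without female mutant 4, edgeR called 2 members, Ugt2b5 and Ugt3a1, against 5.93% of 14595 genes. The number of genes called moved with single mice, from 187 to 1863 genes called in males and from 3 to 866 in females when each mouse was left out.

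In males, Ugt2b38 went from the 1131 to 1332 CPM of controls to 668 to 971 CPM in mutants, with no overlap. The log2 change was -0.52 (SE 0.10, adjusted p = 0.00438). Ugt3a1, a relative of the glucuronosyltransferases that uses another UDP-sugar, had 352, 323, 297, 317 and 320 CPM in male controls and 206, 251, 199, 210 and 280 CPM in male mutants. Its log2 change was -0.48 (SE 0.09, adjusted p = 0.00366), again with no overlap. Both calls were lost when male control 1 (adjusted p = 0.0122 and 0.0111), male mutant 3 (0.0111 and 0.0109) or male control 4 (0.0373 and 0.0344) was left out, and that of Ugt2b38 also without male control 3 (0.0127), while both log2 changes stayed below -0.41 throughout. In the single fit of all 20 mice neither was called (adjusted p = 0.0418 for Ugt2b38 and 0.122 for Ugt3a1).

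The other tested members moved less in males. Ugt3a2 had a log2 change of -0.20 (SE 0.11, adjusted p = 0.224), Ugt2b5 of 0.21 (SE 0.22, adjusted p = 0.542), Ugt2b34 of -0.04 (SE 0.12, adjusted p = 0.83) and Ugt8a of -0.03 (SE 0.10, adjusted p = 0.85). Ugt2b37 had 95.0, 54.4, 56.4, 64.7 and 53.6 CPM in male mutants, all below the 97.4 to 129 CPM of male controls. Its mean was 64.8 CPM in male mutants and 115 CPM in male controls.

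In females, Ugt2b5 had 3.43, 4.56, 6.58, 1.73 and 1.76 CPM in mutants against 0.989, 0.927, 1.00, 1.25 and 0.836 CPM in controls. All 5 mutants were above all 5 controls, and the log2 difference was 1.84 (SE 0.39, adjusted p = 0.0243), which missed the threshold. Without female mutant 4 it passed, at 2.06 (adjusted p = 0.00207). Within litters the difference in mean log2 CPM of Ugt2b5 was 1.67 in litter A, 1.72 in litter B and 0.97 in litter C, where litters A and C held 1 mutant and 1 control female each. Because Ugt2b5 is 97.0% identical to Ugt2b38, whose level in female mutants was 72.04 CPM against 85.3 CPM in female controls, and 94.7% identical to Ugt2b37, whose mean was 1.10 CPM in female controls and 19.9 CPM in female mutants, some reads of these genes may be counted for each other, and their part in this result was not tested.

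Ugt8a had 16.4, 19.6, 17.7, 23.6 and 14.6 CPM in female mutants and 8.96 to 15.6 CPM in female controls, with 1 mutant inside the control range, and a log2 difference of 0.63 (SE 0.15, adjusted p = 0.0322). Markers of Schwann cells, which also make galactosylceramide, summed to 9.56 to 12.6 CPM in female controls and 5.95 to 12.5 CPM in female mutants. Ugt3a1 had 123, 110, 74.3, 210 and 134 CPM in female mutants against 168 to 227 CPM in female controls. The mutant with 210 CPM was female mutant 4, and the log2 difference of Ugt3a1 was -0.58 (SE 0.22, adjusted p = 0.158) with it and -0.87 (adjusted p = 0.00286) without it. Ugt3a2 had a log2 difference of -0.46 (SE 0.18, adjusted p = 0.18), Ugt2b34 of 0.22 (SE 0.10, adjusted p = 0.26) and Ugt2b38 of -0.23 (SE 0.17, adjusted p = 0.51). Without female mutant 4 those of Ugt3a2 and Ugt2b38 were -0.63 (adjusted p = 0.0192) and -0.43 (adjusted p = 0.0231).

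Ugt2b37 varied among the female mutants. The 5 female mutants had 27.6, 15.8, 50.4, 1.98 and 3.64 CPM, from 546, 264, 996, 23 and 62 counts. All were above the female controls, whose highest value was 1.45 CPM, and all were below the lowest male mutant, which had 53.6 CPM. Within litters the difference in mean log2 CPM between female mutants and female controls was 4.13 in litter A, 3.53 in litter B and 1.49 in litter C. In males the same differences were -0.62, -0.88 and -1.27.

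**Figure D4:**
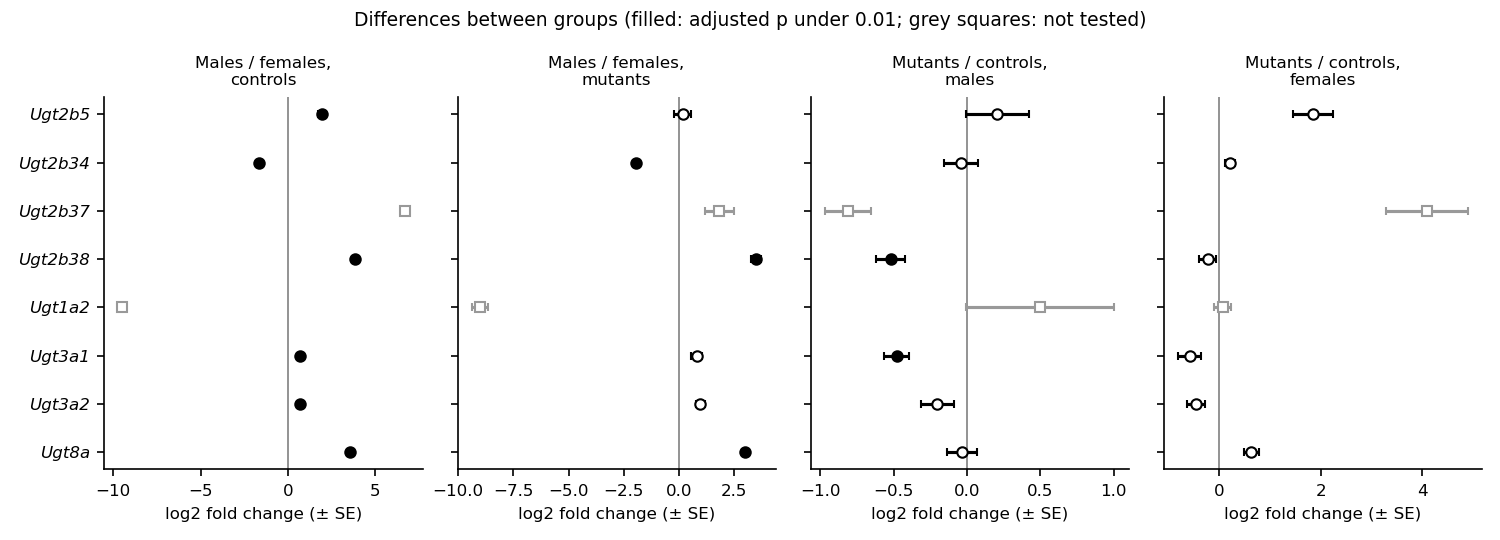
Log2 fold change ± SE of the 8 members that passed the filter on low counts, for males against females in controls and in mutants, and for mutants against controls in males and in females. Each panel has its own horizontal scale; filled circles passed an adjusted p of 0.01, open circles did not, and grey squares mark Ugt2b37 and Ugt1a2, which were not tested. All 6 tested members are filled in control kidneys and 0 in the comparison of females.

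The difference between the sexes in the response to genotype was tested in a single fit of all 20 mice. No gene passed the threshold (0%, 0 of 14820; 618 genes, 4.17%, had an unadjusted p under 0.05, and DESeq2 called 18). Ugt2b5 had a term of -1.61 (SE 0.43, adjusted p = 0.607) and Ugt8a of -0.63 (SE 0.18, adjusted p = 0.76), both with an unadjusted p under 0.05, so no difference between males and females in the change with genotype was established for any member tested. Across both sexes together, Ugt3a1 was the only member of the 6 that was called, with a log2 change of -0.53 (SE 0.13, adjusted p = 0.00538), against 15.9% of 14191 genes. It missed the threshold when any of 8 mice was left out, with an adjusted p of at most 0.0171. Without female mutant 4, 4 members were called, against 21.0% of 14274 genes, with Ugt2b38, Ugt3a1 and Ugt3a2 lower and Ugt2b5 higher in mutants.

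Cell markers varied among the mutants. None of the 12 proximal tubule markers was called with genotype in males or in females, and their sum ranged from 44588 to 63060 CPM in male mutants and from 11880 to 27011 CPM in female mutants, lowest in female mutant 3. That mouse also had the lowest Ugt3a1 (74.3 CPM), Ugt3a2 (507 CPM) and Ugt2b38 (51.8 CPM) of the female mutants, and the highest Ugt2b37 and Ugt2b5. All 6 injured tubule markers rose in males and 1 rose in females (6 without female mutant 4), with the sum at 1813 to 9422 CPM in male mutants and 2717 to 10205 CPM in female mutants. Of 6 thick ascending limb markers 4 fell in male mutants, among them Slc12a1 (log2 change -0.83) and Egf (-1.05), and of 9 distal tubule and collecting duct markers 4 fell, among them Slc12a3 (-1.04) and Slc4a1 (-1.54). Of 5 tested leukocyte markers 2 rose in males, Adgre1 (1.76) and Cd68 (1.43). In female mutants 1 marker of these 3 lists was called, Slc12a3 (-1.18, edgeR adjusted p = 0.00772). Without female mutant 4, 2 thick ascending limb markers and 3 distal tubule and collecting duct markers were called lower in female mutants. In the same fit 3 leukocyte markers were called higher, against 5.93% of 14595 genes called. The part of these markers in the members' values was not tested.

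Kidney weight as a percentage of body weight (KBW), a measure of disease progression in the study, was 0.692 ± 0.117 in male controls, 1.68 ± 0.338 in male mutants, 0.615 ± 0.0448 in female controls and 1.18 ± 0.261 in female mutants (SD, n = 5 each). Among the 10 mutants, with sex as a covariate, the slope of level on KBW was called for 0 of 6 members and 0% of 14416 genes (3212, 22.3%, had an unadjusted p under 0.05, and DESeq2 called 569 genes but 0 members). Ugt3a2 had a log2 slope of -0.90 per percentage point (SE 0.29, adjusted p = 0.104), Ugt3a1 of -0.89 (SE 0.32, adjusted p = 0.135), Ugt2b38 of -0.76 (SE 0.26, adjusted p = 0.118), Ugt8a of -0.57 (SE 0.25, adjusted p = 0.211), Ugt2b34 of -0.47 (SE 0.23, adjusted p = 0.258) and Ugt2b5 of 1.21 (SE 0.56, adjusted p = 0.228). Without female mutant 4 the slopes of Ugt3a2, Ugt3a1 and Ugt2b38 were -0.76, -0.51 and -0.47 (adjusted p = 0.276, 0.417 and 0.366) and that of Ugt2b5 was 0.93 (adjusted p = 0.459).

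For Ugt2b37 the female mutants stood in the same order by KBW and by level. Female mutant 4, at 0.836%, had 1.98 CPM, female mutant 5, at 1.00%, had 3.64 CPM, and female mutant 2, at 1.24%, had 15.8 CPM. Female mutant 1, at 1.38%, had 27.6 CPM and female mutant 3, at 1.46%, had 50.4 CPM. The male mutants did not stand in one order, with 54.4 CPM at 1.22%, 64.7 CPM at 1.54%, 53.6 CPM at 1.71%, 56.4 CPM at 1.79% and 95.0 CPM at 2.15%, the largest kidney.

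**Figure D5:**
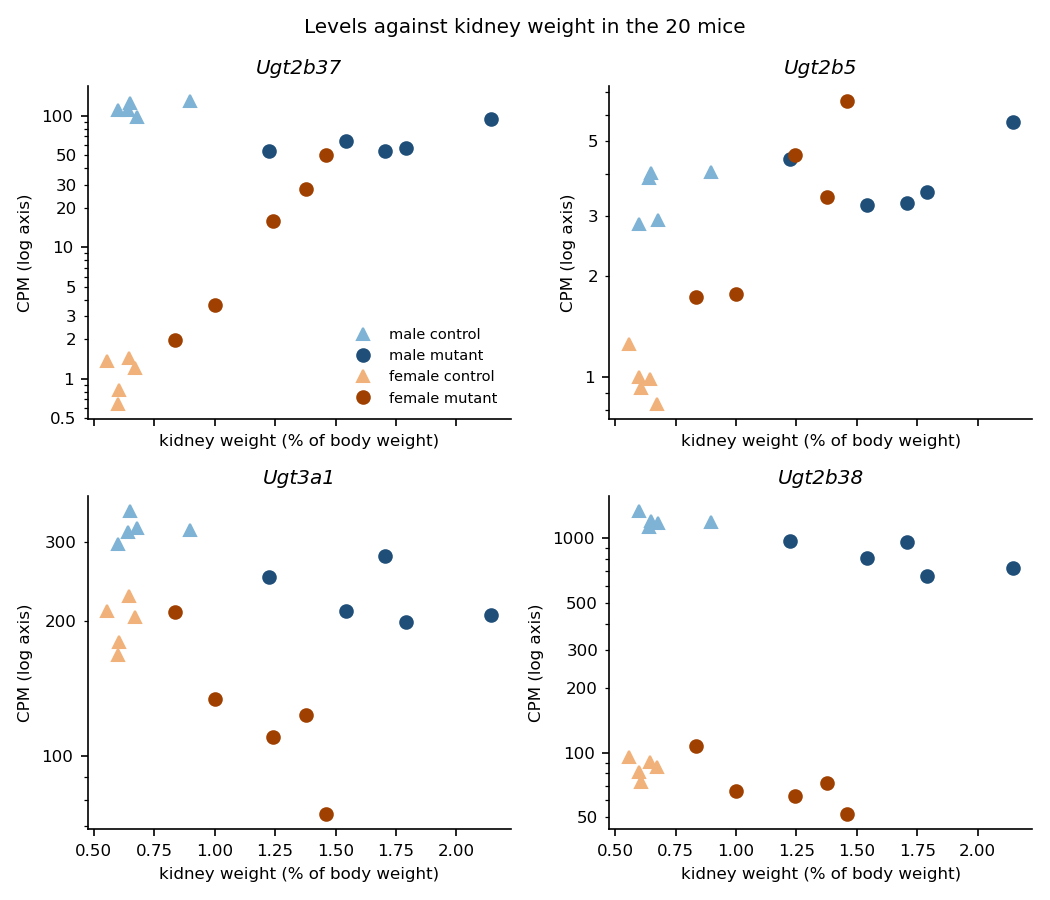
Level in CPM (log axis) against kidney weight as a percentage of body weight in the 20 mice, for Ugt2b37, Ugt2b5, Ugt3a1 and Ugt2b38; triangles are controls, circles mutants, blue males and orange females. In female mutants Ugt2b37 went from 1.98 to 50.4 CPM as kidney weight went from 0.836% to 1.46%. In the same order of mice, Ugt3a1 had 210 (female mutant 4), 134, 110, 123 and 74.3 CPM.

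The other genes of the family and the pathway were taken from lists written for this work. Of 11 further Ugt genes in the table, 6 were tested by sex in controls, and 3 were higher in males and 3 higher in females. Ugt1a7c, the most abundant of them, had a mean of 270 CPM in male controls and 121 CPM in female controls (log2 difference 1.16, SE 0.12, adjusted p = 1.92e-05). Ugt1a1, the bilirubin-conjugating enzyme, was lower in males (log2 difference -3.34, SE 0.30, adjusted p = 6.61e-06), as was Ugt1a10 (-2.49, SE 0.25, adjusted p = 1.62e-05). Ugt1a1, Ugt1a7c, Ugt1a10 and Ugt1a2 share exons, and their reads in those exons cannot be assigned from sequence. Ugt1a1 had only 3 to 8 counts in each male control. With genotype, 0 of 5 tested genes were called in males and 0 of 4 in females. Their median log2 change was -0.14 in males and -0.80 in females, beside -0.002 and -0.003 over all genes. Across both sexes together 1 of 6 was called, lower in mutants, against 15.9% of 14191 genes.

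Among 7 genes that supply UDP-sugars, 3 were higher in control males and 0 lower. They were Slc35d2 (log2 difference 1.06, SE 0.16, adjusted p = 0.000382), a transporter of nucleotide sugars, Ugp2 (0.46, SE 0.06, adjusted p = 0.000198), which makes UDP-glucose, and Ugdh (0.38, SE 0.07, adjusted p = 0.00165), which oxidises it to UDP-glucuronic acid. In male mutants Ugdh fell (log2 change -0.37, SE 0.07, adjusted p = 0.00654) and Uxs1, which converts UDP-glucuronic acid to UDP-xylose, rose (0.52, SE 0.11, adjusted p = 0.00626). None of the 7 was called in female mutants, where 0.637% of 14439 genes were called. Their means moved the same way, with Uxs1 at 45.6 CPM in female controls and 64.8 CPM in female mutants. Ugdh had 127 CPM in female controls and 104 CPM in female mutants.

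Of 8 genes that release or break down glucuronate, 4 were higher in control males and 0 lower, and 2 fell and 1 rose in male mutants. Miox, which opens the inositol ring to give glucuronate, fell by 0.95 on the log2 scale (SE 0.15, adjusted p = 0.00185) and Cryl1 by 0.52 (SE 0.10, adjusted p = 0.00628). Gusb, the lysosomal enzyme that removes glucuronic acid, rose by 0.50 (SE 0.10, adjusted p = 0.00622). In females 0 of the 8 were called with genotype, against 0.637% of 14439 genes. Without female mutant 4, 1 was called, lower in mutants, against 5.93% of 14595 genes. Mean Miox was 1947 CPM in female controls and 1142 CPM in female mutants, Cryl1 256 and 196 CPM, and Gusb 33.8 and 39.1 CPM. Efflux pumps that carry conjugates differed by sex in both directions, 2 of 7 being higher and 3 lower in control males. Abcc3, a basolateral pump for glucuronides, had a log2 difference of -5.77 (SE 0.26, adjusted p = 1.43e-08), Abcc4 of -1.81 (SE 0.11, adjusted p = 2.17e-07) and Abcc2, an apical pump, of 1.12 (SE 0.12, adjusted p = 3.95e-05). None of the 7 was called with genotype in either sex.

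Among 13 other conjugating enzymes, 4 were higher and 3 lower in control males, and in male mutants 1 rose and 2 fell. Nat8, an acetyltransferase, was higher in control males (log2 difference 2.18, SE 0.13, adjusted p = 1.5e-07), and the glutathione transferases Gsta4 (-2.12, SE 0.17, adjusted p = 2.05e-06) and Gsta2 (-1.80, SE 0.17, adjusted p = 8.51e-06) were lower. In male mutants Gsta2 fell by 1.22 (SE 0.12, adjusted p = 0.00034). In females 0 of the 13 were called with genotype, with or without female mutant 4. Mean Gsta2 was 602 CPM in female controls and 417 CPM in female mutants.

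Of 15 receptors and transcription factors known to act on such genes, 14 were tested, and 4 were higher and 1 lower in control males. Prlr, the prolactin receptor, was lower in males (log2 difference -3.91, SE 0.21, adjusted p = 6.15e-08), while Esr1, an oestrogen receptor, was higher (0.69, SE 0.14, adjusted p = 0.00291). Among male mutants only Ghr, the growth hormone receptor, was called in this list (-0.37, SE 0.07, adjusted p = 0.00634). In females 0 of the list were called with genotype, with or without female mutant 4. Mean Ghr was 927 CPM in female controls and 668 CPM in female mutants.

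Around Ugt8a, 7 genes of galactosylceramide and sulfatide metabolism were measured. In control males 3 were higher and 2 lower, among them Ugcg, which makes glucosylceramide (log2 difference 0.77, SE 0.10, adjusted p = 0.00012), and Gal3st1, the sulfotransferase that makes sulfatide (-0.60, SE 0.09, adjusted p = 0.000442). In male mutants Ugcg and Arsa, which removes sulfate from sulfatide, rose by 0.54 each on the log2 scale (SE 0.08 and 0.09, adjusted p = 0.00197 and 0.00221), and Fa2h, which hydroxylates the fatty acid of these lipids, fell by 0.89 (SE 0.16, adjusted p = 0.00369). In females 0 of the 7 were called with genotype. Without female mutant 4, 1 was called, higher in mutants, against 5.93% of 14595 genes. Mean Ugcg was 16.4 CPM in female controls and 23.1 CPM in female mutants, Arsa 21.3 and 26.6 CPM, and Fa2h 13.1 and 8.35 CPM.

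The genes whose levels most resembled each member were ranked by Pearson's r of log2 CPM over the 20 mice, which carry the sex difference in every point set. For Ugt2b38 they were Slc22a28 (r = 0.991), Mpped1 (0.990) and the Y-linked Eif2s3y (0.989), and for Ugt8a they were Cyp2j13 (0.989), Sdc2 (0.989) and Fmo5 (0.988). For Ugt1a2 they were the X-inactivation RNA Xist (0.986), Oat (0.982) and Atp13a4 (0.981), and for Ugt2b34 Xist (0.981), Ugt1a2 (0.976) and Igf2 (0.968). For Ugt2b37 they were Serpina1b (0.932), Serpina1a (0.911) and Cpe (0.905), of which the first 2 belong to a family of near-identical genes. For Ugt2b5 they were Srd5a1 (0.921), Frzb (0.912) and Il34 (0.907), for Ugt3a1 Gcnt1 (0.965), Aldh9a1 (0.962) and Dnaja3 (0.958), and for Ugt3a2 Slc31a1 (0.986), Vil1 (0.981) and Abhd3 (0.979).

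Between members, Ugt3a1 and Ugt3a2 had r = 0.957 and Ugt2b37 and Ugt2b5 r = 0.891 over the same mice. Ugt2b5 had r = 0.504 with Ugt2b38, the gene to which its coding sequence was closest. Ugt1a2 and Ugt2b38 had r = -0.986, which joins a gene higher in females with one higher in males.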

How the data were processed

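Kidney RNA of each of 20 mice was sequenced (total RNA by Trizol and RNeasy, NovaSeq). The authors' deposited table holds raw read counts per gene; per the labels, trimming used fastp 0.23.2, alignment to mm10 used STAR 2.7.10b, and the statistics used DESeq2 in R 4.3.0. The counting tool, annotation and strand setting are not given in the sources used here. Groups, sex and litter came from the sample labels, and mice were numbered in listing order. The members and gene lists were chosen with earlier results of these data known.

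Counts were analysed with edgeR 4.0.16 in R 4.3.3 (TMM scaling, filterByExpr, quasi-likelihood test, a litter term in fits of 10 mice, none in the KBW fit, which had a sex term, and sex and litter groups in fits of all mice), with Benjamini-Hochberg adjustment over all genes and a threshold of 0.01, the study's. SE is the log2 change divided by the square root of F. The scripts were tested on simulated data. Ugt2b37 and Ugt1a2 entered each fit but received no p. All 10 members are named; from other lists, at most the 3 called genes with the largest change per comparison are named, with further genes of the pathway where the text turns on them. A gene that this rule names and a motif are not reported here. No 2 libraries of a group were alike within sampling noise. Each mouse is a separate animal. Exon lengths, positions and coding sequences came from GENCODE M21 (GRCm38), promoters from RefSeq (GRCm38.p6), and identities from Biopython 1.88 alignments. Alternatives were DESeq2 1.42.0 (size factors, Wald test), no filter, a minimum of 10 counts in each library, leaving out the litter term (adding it for KBW), a single fit of all mice, each mouse left out, and for shares other sums and lengths. Intervals of depth were not computed, since replicate mice carry the error.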

Additional observations from a re-analysis of the deposited data

Results flagged for a closer look

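In 3 of 37 groups checked, taking each member in each group of mice, the highest value stood apart from the other 4 mice. Chance alone flags about 1 in 20 groups, and in Ugt2b35 and Ugt2b36 the other 4 mice were at 0, so that any count stands apart. Ugt2b37, picked for its values, in male mutant 1 was 95.0 CPM, against 64.7 CPM in the next mouse, and this mouse had the largest kidney of all 20 (2.15% of body weight). Ugt2b36 in male mutant 5 was 0.508 CPM (9 counts), with 0 in every other mouse. Ugt2b35 in male control 1 was 0.0732 CPM, from 1 count.

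Ugt2b37 moved in opposite directions with genotype in the sexes. All 5 male mutants were below all 5 male controls and all 5 female mutants were above all 5 female controls, and the fitted difference between the changes was -4.94 on the log2 scale (males minus females). The difference was not tested, because the gene had been picked for its group pattern.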

How the results depend on the processing

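No paired analysis was possible because the labels' numbers name single animals and the mice were numbered in listing order; litter was a covariate instead.

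The 6 members called by sex in controls stayed called under each alternative except Ugt3a1 in the single fit of all 20 mice (adjusted p = 0.0164). With DESeq2's Wald test, members called were 2 in females, beside 928 of 14439 genes. They were 5 by sex in mutants, beside 1959 of 14416 genes, and 3 across both sexes, beside 2973 of 14191 genes. The single fit of all mice, with 14820 genes, gave 0 in males, 2 in females and 5 by sex in mutants. Beside these, 690, 672 and 2353 genes were called. Leaving out the litter term gave 2 across both sexes, beside 2344 of 14191 genes. With each mouse left out, members called ranged from 0 to 2 in males, 0 to 2 in females, 6 to 6 by sex in controls, 3 to 5 by sex in mutants, 0 to 4 across both sexes, and 0 to 0 for the difference between sexes and the slope on KBW. Genes called over the whole table moved from 1185 to 2001 (DESeq2) and 690 (single fit) in males, from 92 to 928 (DESeq2), 672 (single fit), 230 (no filter) and 172 (no litter term) in females, and from 782 to 1959 (DESeq2) and 2353 (single fit) by sex in mutants. For the difference between sexes they moved from 0 to 18 (DESeq2), 2 (no filter) and 1 (10 counts in each mouse), and for the slope on KBW from 0 to 569 (DESeq2) and 10 (litter added). With each mouse left out, genes called ranged from 187 (without male control 4) to 1863 (male mutant 2) in males, 3 (female control 2) to 866 (female mutant 4) in females, 1223 (male control 4) to 2659 (male control 3) by sex in controls, 246 (female mutant 1) to 1330 (female mutant 4) by sex in mutants, 1656 (male control 4) to 2994 (female mutant 4) across both sexes, 0 to 3 (female mutant 4) for the difference between sexes and 0 to 76 (male mutant 5) for the slope on KBW. The change of Ugt8a in males turned to 0.03072 without the litter term (adjusted p = 0.874). With each mouse left out, changes that were not called crossed 0 for Ugt2b34 in males (-0.1398 to 0.08347), Ugt8a in males (-0.1099 to 0.08953), Ugt2b5 by sex in mutants (-0.02543 to 0.4148) and Ugt3a1 in the difference between sexes (-0.009143 to 0.4172). The cause of these differences was not tested. Shares moved by more than the SD for 22 of 40 without division by length, 15 of 40 with unshared exon bases and 3 of 40 with all Ugt genes in the sum. With at most 4 counts, Ugt2b35 was below what this depth can compare, and with 5 mice a group the calls in mutants with threshold-near p values depended on single mice.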
